A study of Mus musculus with 3 samples.

Results

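The 10 genes described here, Klf2, Klf3, Klf4, Klf6, Klf7, Klf9, Klf10, Klf11, Klf13 and Klf16, encode Kruppel-like factors. They were found by symbol in the transcript tables and joined by gene identifier to the gene tables, and are 10 of 55536 genes. The study measured chromatin-fraction RNA from primary bone-marrow-derived macrophages of C57BL/6J mice after 20 min in 100 ng/ml lipid A, the lipid anchor of bacterial endotoxin, which is sensed by TLR4. There was 1 group of 3 libraries, labelled biological replicates 1, 2 and 3, made from 1000, 250 and 500 ng of RNA after removal of ribosomal RNA. All 3 were treated and no untreated library was analysed here, so levels are given and no induction. The labels give separate biosamples and 1 donor entry, record neither age nor sex, and do not say whether the cells came from separate animals, so the spread between libraries may be technical.

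Kruppel-like factors are transcription factors with a carboxy-terminal block of zinc fingers that binds GC-rich and CACCC-type DNA, a preference they share with the Sp factors. Their amino-terminal parts differ and sort them into families: Klf2, Klf4, Klf6 and Klf7 mostly activate, Klf3 represses through the corepressor CtBP, and Klf9, Klf10, Klf11, Klf13 and Klf16 recruit the corepressor Sin3. In macrophages Klf2 and Klf4 are known for restraining inflammatory gene expression and for alternative activation, and Klf6 for promoting inflammatory gene expression. The chromatin fraction holds much nascent and incompletely spliced RNA.

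The total expected count over genes and other entries was 16317439 in replicate 1, 16245280 in replicate 2 and 12439931 in replicate 3. TPM is the level of a transcript per unit of length, scaled to a fixed sum per library. Small nucleolar RNA genes took 55.7%, 46.4% and 40.4% of all TPM in replicates 1, 2 and 3, and coding genes took 15.8%, 18.0% and 24.7%, a scale on which all 10 members had their highest TPM in replicate 3. The median of all protein-coding genes was also highest there, at 0.3, 0.34 and 0.59 TPM in replicates 1, 2 and 3. For differences between libraries, CPM is used, that is the expected count scaled to a fixed library total with the TMM factors of edgeR. Of the macrophage markers, 16 of 18 reached 1 TPM in every library, among them Adgre1 (F4/80) at 67.5, 83.1 and 76.8 TPM and Csf1r at 136, 135 and 174 TPM, and Cd163 and Marco did not.

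The sequences that the results turn on are shown first. Exon 2 of the transcript Klf10-204 lies at chr15:38300267-38300417, minus strand, of GRCm38, and is coding in the annotation. It is shown because, of all transcripts of the members, this one differs by the most TPM between the deposited quantifications, and capitals mark its longest run of A, 33 bases.
Klf10-204 exon 2: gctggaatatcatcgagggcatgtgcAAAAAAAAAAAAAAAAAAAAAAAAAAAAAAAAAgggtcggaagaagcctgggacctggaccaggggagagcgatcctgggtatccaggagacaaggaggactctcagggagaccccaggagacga

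The transcript Klf6-202, annotated as a retained intron, begins in intron 1 of the coding transcript Klf6-201, 90 bases before exon 2. Its first 120 bases, at chr13:5864678-5864797 on the plus strand, are shown because they hold most of what sets it apart from Klf6-201. Capitals mark the last 2 bases of the intron, the AG of the 3′ splice site.
Klf6-202 start: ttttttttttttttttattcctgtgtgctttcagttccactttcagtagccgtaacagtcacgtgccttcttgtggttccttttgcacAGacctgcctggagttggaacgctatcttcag

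The transcript Klf3-203, also annotated as a retained intron, reads 2400 bases past the end of exon 4 of the coding transcript Klf3-201. The junction at chr5:64823000-64823089, plus strand, is shown with the first 2 bases of the intron, the GT of the 5′ splice site, in capitals.
Klf3-203 junction: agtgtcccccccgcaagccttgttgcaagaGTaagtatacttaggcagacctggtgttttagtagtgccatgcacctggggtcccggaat

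Promoter windows of 300 bases, 250 before and 50 after the start site used there, were taken from RefSeq (GRCm38.p6). They covered 8 of the 10 members, all but Klf10 and Klf16. These start sites can differ from the gene starts given below. The Klf7 window, chr1:64121340-64121639, lies wholly inside the gene, which runs from 64029447 to 64122282 on the minus strand. The windows of Klf6 and Klf2 are shown, as those of the highest member and of the one with a match to the MEF2 site, a motif bound by the MEF2 factors that lie downstream of the kinase ERK5. In the Klf6 window, chr13:5861239-5861538 on the plus strand, capitals mark CCAAT or its reverse and the GC box GGGCGG. In the Klf2 window, chr8:72318812-72319111 on the plus strand, capitals mark the MEF2 match.
Klf6 promoter: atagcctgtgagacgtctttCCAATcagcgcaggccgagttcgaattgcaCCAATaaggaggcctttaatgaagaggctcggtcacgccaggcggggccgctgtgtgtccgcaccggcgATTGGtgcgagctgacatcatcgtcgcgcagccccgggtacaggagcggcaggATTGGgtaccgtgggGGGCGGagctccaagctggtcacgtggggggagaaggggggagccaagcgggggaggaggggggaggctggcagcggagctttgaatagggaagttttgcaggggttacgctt
Klf2 promoter: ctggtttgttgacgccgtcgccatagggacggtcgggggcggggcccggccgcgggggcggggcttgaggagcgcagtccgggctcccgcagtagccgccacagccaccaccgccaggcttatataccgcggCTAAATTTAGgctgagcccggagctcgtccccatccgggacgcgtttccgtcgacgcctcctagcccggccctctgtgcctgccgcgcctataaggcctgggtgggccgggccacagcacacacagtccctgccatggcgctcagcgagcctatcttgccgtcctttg

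Motifs were searched on both strands, and matches of different motifs were allowed to overlap. The GC box GGGCGG was found in 7 of the 8 windows, all but that of Klf9, against 35.7% of all 32851 windows. CACCC was found in 5 of 8 windows (57.5% of all windows), TGACG, the core of the cAMP response element, in 5 of 8 (20.8%), CCAAT in 4 of 8 (37.4%) and the E box CACGTG in 3 of 8 (7.15%). The Klf6 window held 4 CCAAT matches, a number that 1.06% of all windows reached. The MEF2 site was found in the Klf2 window and in 0.557% of all windows. The letters of TATAAA (13.6% of all windows), of the CArG box of SRF (1.63%), of the NF-kB site (6.9%) and of the AP-1 site, TGACTCA or TGAGTCA (5.2%), were in none of the 8 windows. At such shares, absence from 8 windows does not set the members apart. The share of G and C was above the median of all windows, 52.7%, in all 8, with the lowest at Klf7, 58.3%, and the highest at Klf11, 77.7%. Klf6 had 63.0% and Klf4 74.3%.

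Among the members, 6 of 10 reached 1 TPM in every library, against 40.6% of the 22028 protein-coding genes. These were Klf6, Klf13, Klf3, Klf2, Klf10 and Klf7, and Klf16, Klf4, Klf11 and Klf9 were lower. The 10 members together held 176, 122 and 238 TPM in replicates 1, 2 and 3. Klf6 alone took 68.3% ± 5.71 of that sum, and Klf6, Klf13 and Klf3 together 89.6% ± 2.22 (SD, n = 3). The median level of the members was 5.17 ± 1.06 TPM, against 0.41 ± 0.157 TPM for all protein-coding genes (SD over 3 libraries). The members were chosen with earlier results of these data known, so these comparisons with all coding genes describe the list and test nothing.

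**Figure D1:**
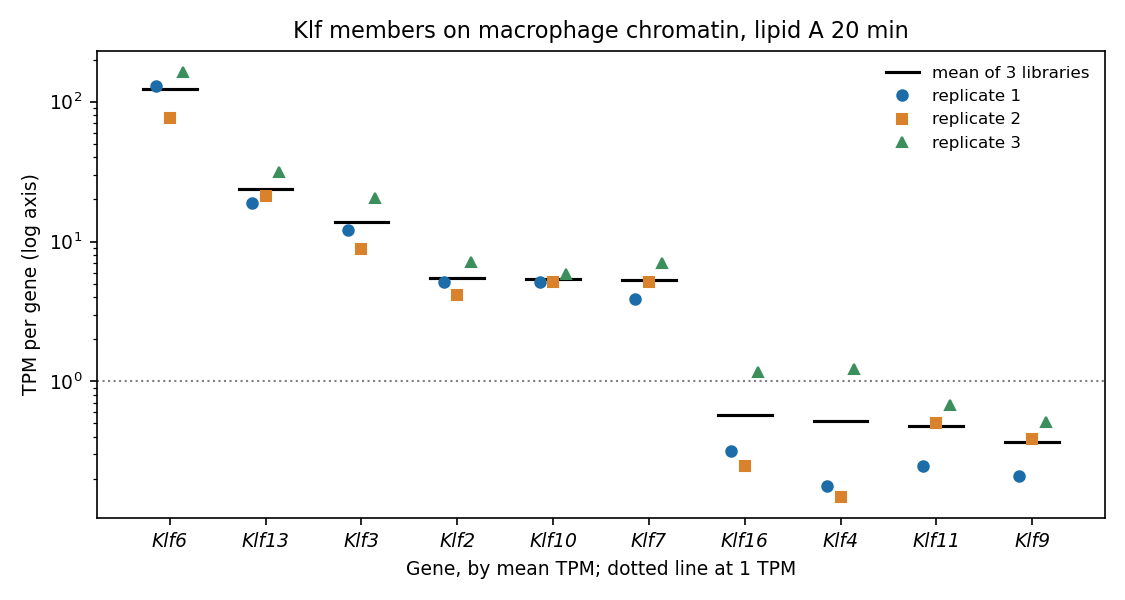
TPM of each member (log axis) in replicates 1, 2 and 3, with the mean of the 3 libraries as a bar and 1 TPM as a dotted line. Klf6 sits highest, between 76.4 and 163 TPM, and Klf16, Klf4, Klf11 and Klf9 have means below 1 TPM.

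Among the activator family, Klf6 (chromosome 13, 5861482 to 5870394, plus strand), a factor of injury responses and a tumour suppressor, had 130, 76.4 and 163 TPM in replicates 1, 2 and 3. Its mean of 123 ± 43.7 TPM (SD, n = 3) lay above 99.0% of protein-coding genes. On the CPM scale it was highest in replicate 1 and lowest in replicate 2, at 573, 306 and 478 CPM.

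Klf2 (chromosome 8, 72319033 to 72321656, plus strand), a factor of quiescence in endothelium, T cells and monocytes, has 1 annotated transcript. It had 5.10, 4.12 and 7.16 TPM in replicates 1, 2 and 3, from 235, 140 and 159 expected counts. Its CPM, 14.3, 10.1 and 11.3, spanned 1.41 times from the lowest to the highest library. Klf7 (chromosome 1, 64029447 to 64122282, minus strand), best known from neurons and fat cells, had 3.86, 5.17 and 6.98 TPM. Its CPM differed least among the members, at 29.0, 28.5 and 29.7, so the order of its TPM was not seen in its CPM. Of the 7662 bases of its longest transcript, Klf7-202, 3196 are also exon of Gm26649 on the opposite strand, a lincRNA listed at 0 counts in every library; the use of strand in counting is not given, so reads of the pair cannot be told apart.

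Klf4 (chromosome 4, 55527143 to 55532466, minus strand), a factor of monocyte differentiation and of reprogramming to pluripotency, had 0.18, 0.15 and 1.22 TPM in replicates 1, 2 and 3. These rest on 14, 9 and 47 expected counts. In CPM it had 3.33 in replicate 3 (exact 95% Poisson interval 2.44 to 4.42), against 0.849 in replicate 1 (0.464 to 1.42) and 0.650 in replicate 2 (0.297 to 1.23); these intervals cover counting error only. Replicate 3 thus stood above both others beyond counting error, 5.12 times the lowest. Fibroblast markers were also uneven between libraries, with Col1a1 at 0, 43 and 31 expected counts in replicates 1, 2 and 3, high in replicate 2, where Klf4 was lowest, and in replicate 3, where it was highest; their part in the Klf4 values was not tested.

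The CtBP-binding repressor Klf3 (chromosome 5, 64803388 to 64832901, plus strand), known from B cells, erythroid cells and fat, was the third highest member, with 12.2, 8.90 and 20.3 TPM. In CPM it had 70.6, 46.3 and 69.9, with replicate 2 the lowest. The noncoding gene Gm20033, on the opposite strand, shares 404 exon bases with Klf3-201 and had 8.57, 2.44 and 7.23 expected counts, and C230096K16Rik lies within the gene on the same strand with 299, 122 and 227 expected counts and shares no exon base with it. The other family members of this kind, Klf8 and Klf12, were low: Klf8 had 33, 11 and 18 expected counts and Klf12 had 1, 0 and 0.

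Among the Sin3-binding repressors, Klf13 (chromosome 7, 63886351 to 63938915, minus strand), which activates the gene for the chemokine RANTES in T cells, was the second highest member, with 18.7, 21.2 and 31.3 TPM. Its CPM, 48.9, 40.3 and 48.7, spanned 1.21 times. Klf10 (chromosome 15, 38291463 to 38300706, minus strand), also called TIEG1, an early response gene of TGF-beta, had 5.11, 5.15 and 5.81 TPM from 337, 227 and 209 expected counts. It was the most even member on the TPM scale, and in CPM it was highest in replicate 1, at 20.4, against 16.4 and 14.8 in replicates 2 and 3.

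Klf16 (chromosome 10, 80567124 to 80577321, minus strand), also called BTEB4, had 0.32, 0.25 and 1.16 TPM from 22, 13 and 39 expected counts. Like Klf4 it was highest in replicate 3, at 2.76 CPM (exact 95% Poisson interval 1.96 to 3.77), but this interval met that of replicate 1 (0.836 to 2.02) and lay above that of replicate 2 (0.5 to 1.61). Klf11 (chromosome 12, 24651274 to 24662789, plus strand), a close relative of Klf10 known from diabetes in humans and from TGF-beta signalling, had 0.25, 0.50 and 0.68 TPM from 27, 41 and 36 expected counts. Klf9 (chromosome 19, 23141226 to 23168134, plus strand), a target of the glucocorticoid and thyroid hormone receptors, had 0.21, 0.39 and 0.51 TPM from 25, 35 and 30 expected counts. Klf11 and Klf9 were both lowest in replicate 1 on either scale, and their Poisson intervals for the 3 libraries overlapped.

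The order by mean TPM was Klf6, Klf13, Klf3, Klf2, Klf10, Klf7, Klf16, Klf4, Klf11 and Klf9. Of the 9 neighbouring pairs, 5 had the first gene higher in all 3 libraries. Klf6 exceeded Klf13 by 2.34 ± 0.47 in log2(TPM + 0.1), Klf13 exceeded Klf3 by 0.83 ± 0.36 and Klf3 exceeded Klf2 by 1.27 ± 0.20 (SD, n = 3). The widest step was from Klf7 to Klf16, 3.21 ± 0.71, which parts the 6 higher from the 4 lower members. Klf11 exceeded Klf9 by 0.27 ± 0.09, from 27 against 25, 41 against 35 and 36 against 30 expected counts in replicates 1, 2 and 3. The exact 95% Poisson intervals of these counts overlapped in each library, so this step is not clear of counting error. Klf2 and Klf10 differed by -0.01 ± 0.31, Klf10 and Klf7 by 0.04 ± 0.33, Klf16 and Klf4 by 0.33 ± 0.35 and Klf4 and Klf11 by -0.28 ± 1.01, so these neighbours did not differ beyond their spread. With 3 libraries an exact two-sided sign-flip test cannot go below p = 0.25, so no test of the order was made. Not divided by length, the expected counts put Klf3 above Klf13 in all 3 libraries, Klf7 above Klf10 and Klf10 above Klf2, and Klf11 above Klf4 in their means, so 5 of the 9 steps kept their direction.

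In Klf6, Klf13 and Klf3, transcripts annotated as retained introns or processed transcripts carried 36.2% ± 6.66, 80.6% ± 2.20 and 68.7% ± 1.10 of the gene's TPM (SD, n = 3). The median share of TPM was 48.1% ± 1.58 over 7454 coding genes with such a transcript and at least 1 TPM in every library. By this measure alone, Klf13 and Klf3 lay above the median and Klf6 below. All of the share in these 3 genes was in retained introns, since the processed transcript of Klf3 was at 0 counts. The other members hold no transcript of either type except Klf9, whose processed transcript Klf9-202 was at 0 counts in the gene quantification.

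Klf6-201, the coding transcript, had 75.9, 45.9 and 116 TPM in replicates 1, 2 and 3, against 53.3, 29.9 and 46.6 TPM for Klf6-202. The transcript Klf6-202 is 799 bases long, of which 98 lie outside the coding transcripts of the gene, 90 of them printed above and the rest at its end in intron 3. It took 36.2% of the TPM, which is divided by length, from 7.70% ± 2.19 of the expected counts (SD, n = 3).

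Klf13-203 had 14.8, 17.6 and 24.9 TPM, against 2.82, 2.23 and 5.21 TPM for the coding transcript Klf13-201. It is a single exon of 934 bases, at 63935399 to 63936332 on chromosome 7, inside the 46169-base intron 1 of Klf13-201 and 1634 bases past its exon 1, and 862 of its bases lie outside the coding transcripts. The expected counts of Klf13-203 were 306, 257 and 238, and no exon of another gene overlaps it. They made up 39.5% ± 5.89 of the expected counts of Klf13 (SD, n = 3), against 80.6% of its TPM. E030018B13Rik, on the opposite strand and overlapping the gene but none of its exons, had 186, 189 and 123 expected counts. In Klf3, Klf3-204 had 4.19, 2.84 and 7.37 TPM and Klf3-203 had 4.08, 3.22 and 6.85 TPM, against 3.03, 2.18 and 5.32 TPM for the coding Klf3-201. Bases outside the coding transcripts make up 90.5% of Klf3-204 and 81.8% of Klf3-203, and here the share by counts, 62.9% ± 0.843, was close to that by TPM.

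Summed over protein-coding transcripts only, a choice made after the values were seen, Klf13 had 4.61 ± 1.495 TPM and Klf3 3.94 ± 1.98 TPM (SD, n = 3). Both then lay below Klf2, 5.46 ± 1.55 TPM, and Klf6 kept the highest level at 79.2 ± 35.0 TPM.

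**Figure D2:**
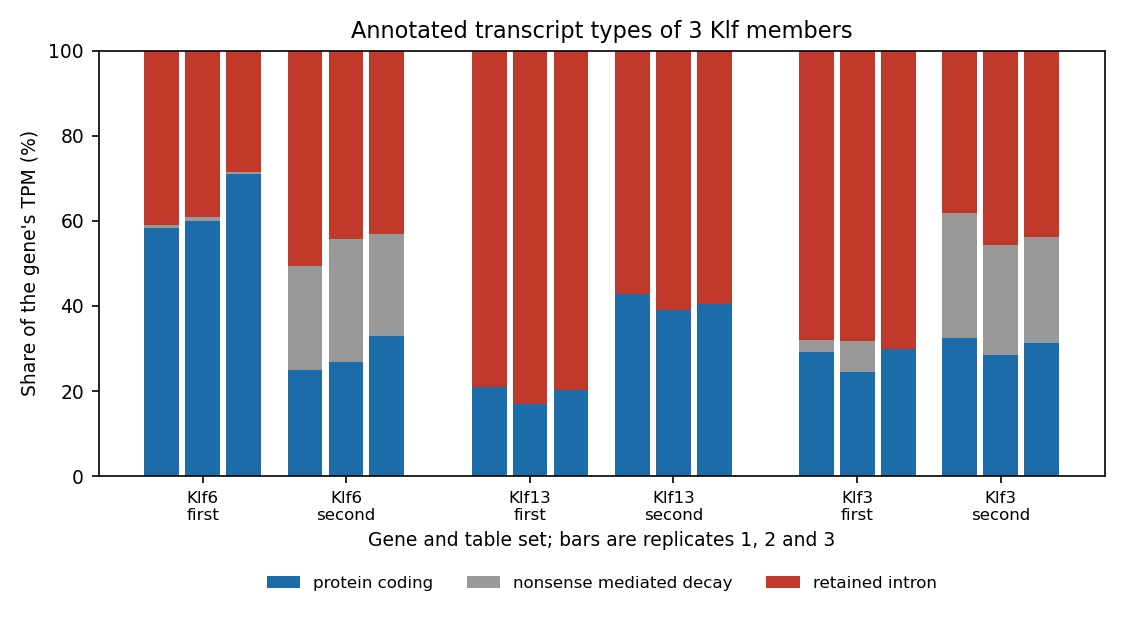
Share of each gene's TPM (%) in transcripts annotated as protein coding, nonsense-mediated decay or retained intron for Klf6, Klf13 and Klf3, with 1 bar per replicate and the gene quantification (first) beside the second transcript tables (second). Retained-intron transcripts took between 28.6% and 83.2% in the first tables and between 38.3% and 61.0% in the second. Their mean share in the second was 45.9% for Klf6, 59.2% for Klf13 and 42.6% for Klf3.

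A second quantification of the same libraries was made by the authors without an alignment file among its inputs. It gave a higher mean TPM for 9 of the 10 members, all but Klf16. Each of these 9 was higher by more than its SD between libraries in the gene tables. This was not particular to the members. The median log2 level of all protein-coding genes also rose, from -0.925 in the gene tables to 0.873 in the second tables. That of the members went from 2.45 to 3.42. The share of all coding genes with a higher TPM in the second tables was not counted. Klf6 had 276 ± 107 TPM there, Klf3 27.9 ± 10.9 TPM and Klf7 12.9 ± 0.982 TPM (SD, n = 3). Most counts lay near the usual difference between the table sets: over 11320 coding genes with a mean of at least 10 expected counts the median ratio of second to first counts was 1.66, and those of Klf6, Klf13, Klf3, Klf2, Klf7, Klf16 and Klf9 lay between 1.30 and 2.02. Klf4 had 3.00 times as many counts in the second tables, Klf10 4.26 times and Klf11 10.6 times, the last above 98.8% of those genes. Klf10 had 195 ± 36.8 TPM in the second tables (SD, n = 3) and would be second to Klf6, whereas it had 5.36 ± 0.393 TPM in the gene tables.

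The gap for Klf10 was in Klf10-204, a coding transcript of 326 bases that is incomplete in the annotation. It had 194, 146 and 216 TPM in the second tables and 0.29, 0.96 and 0 TPM in the first. Without it, Klf10 had 10.9, 7.83 and 10.2 TPM in the second tables. Its exon 2, printed above, holds 33 A in a row. Cut into overlapping words of 31 bases, 15 of its 296 words also occur in transcripts of other genes, on either strand, and 1 such word occurs in 163 other genes, whereas no word of the other 5 Klf10 transcripts does. Of the 121 transcripts in the annotation with at least 31 A in a row, 37.2% had at least 10 times the TPM in the second tables and 1 TPM or more there, against 9.18% of the 141646 others. The 121 transcripts had a median of 2.85 TPM in the second tables, where 2 of them reached 100 TPM, against a mean of 185 TPM for Klf10-204. Whether the run of A gives the second-table level was not tested.

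For Klf11, Klf11-201 carried 94.4% of the second-table level, 2.22, 3.51 and 5.88 TPM, and 11 of its 4056 words occur in other genes, at most 7 genes each. For Klf4, 61 of the 2999 words of Klf4-201 do. Klf12, not a member, was listed at 0.06, 0 and 0 TPM in the gene tables and had 10.8 ± 6.68 TPM in the second, in Klf12-203, in which 61.2% of words occur in other genes and 1 word occurs in 2628. Klf6-203, a transcript annotated for nonsense-mediated decay, had 85.4, 44.7 and 78.0 TPM in the second tables and 1.10, 0.62 and 0.64 in the first, with no word shared with another gene.

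**Figure D3:**
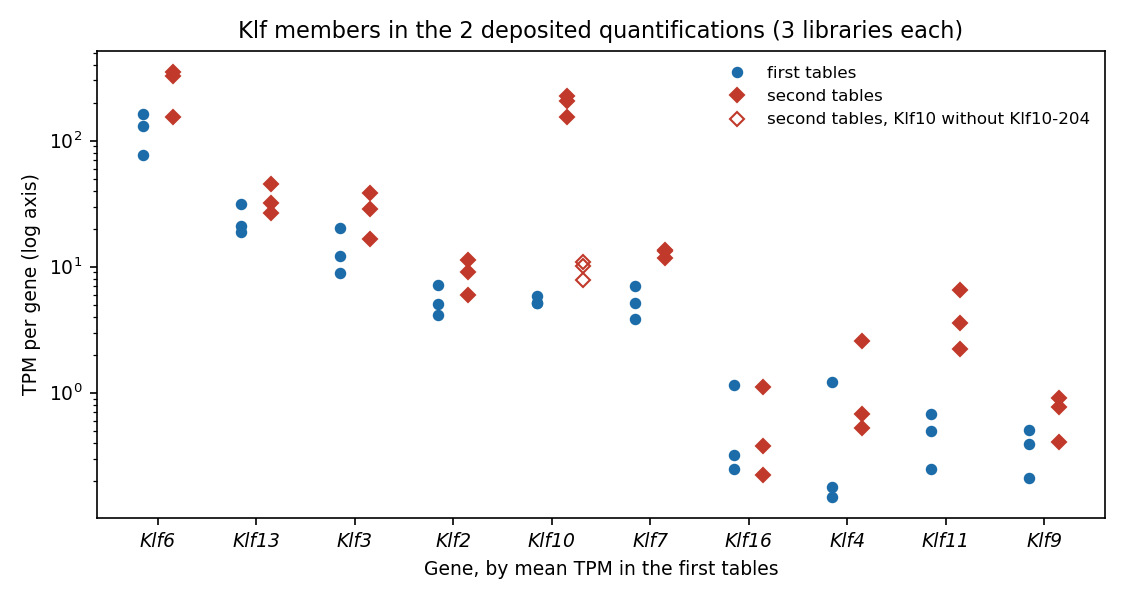
TPM of each member (log axis) in the gene quantification (first tables, circles) and the second transcript tables (diamonds), 3 libraries each, with open diamonds for Klf10 without Klf10-204. Klf10 and Klf11 are farthest apart, and Klf10 without Klf10-204 sits between 7.83 and 10.9 TPM.

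The only measured difference in the labels between libraries was the amount of starting RNA, with 1 library per amount, so amount, replicate and anything else that differed cannot be told apart. In the edgeR quasi-likelihood fit of a slope per doubling of starting RNA, 88 of 15065 genes passed an adjusted p of 0.05, 0.584% of those tested, and none of the 10 members did; 1017 genes had an unadjusted p below 0.05, and DESeq2 called 84 genes and no member. Each fit leaves 1 residual degree of freedom per gene, so the scatter was estimated in part from other genes. Slopes of 8 of the 10 members were positive, against 50.7% of all genes tested, with a median of 0.15 on the log2 scale, against 0.00 for all genes. Without replicate 2, 5 of the 10 slopes were positive, with a median of -0.01.

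Klf6 had 306, 478 and 573 CPM at 250, 500 and 1000 ng, a slope of 0.45 on the log2 scale (SE 0.20, edgeR adjusted p = 0.669). Klf6, Klf13, Klf3 and Klf2 all had their highest CPM at 1000 ng and their lowest at 250 ng. The share of all genes with that order was not counted. At 500 and 1000 ng Klf13 was nearly level, at 48.7 and 48.9 CPM, as was Klf3, at 69.9 and 70.6 CPM. Without replicate 2, the library at 250 ng, their slopes were 0.006 and 0.015. Klf11 had 2.96, 2.55 and 1.64 CPM and Klf9 had 2.53, 2.12 and 1.52 CPM at 250, 500 and 1000 ng, in the opposite order, with slopes of -0.42 (SE 0.29, edgeR adjusted p = 0.950) and -0.37 (SE 0.30, edgeR adjusted p = 0.966). Klf4 and Klf16 were highest at 500 ng, with adjusted p = 0.999 for both in the same edgeR fit.

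**Figure D4:**
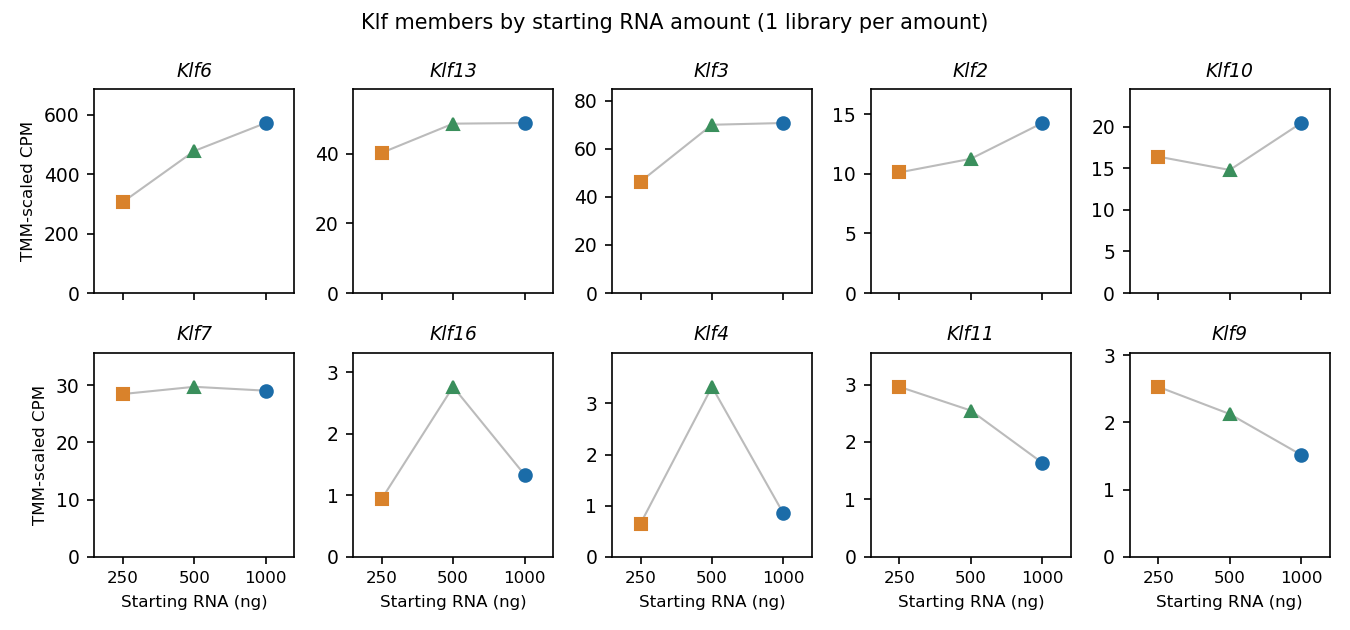
TMM-scaled CPM of each member against starting RNA of 250, 500 and 1000 ng, 1 library per amount, each panel with its own axis from 0. Klf6 runs from 306 to 573 CPM, Klf7 is level between 28.5 and 29.7 CPM, and Klf4 and Klf16 peak at 500 ng.

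The spread between libraries, as the tagwise coefficient of variation of edgeR over 13985 genes, was given for 9 of the 10 members, since Klf4 did not pass the filter on low counts. Their median was 0.213, against 0.198 for all genes. Klf16 had the widest spread of these 9, 0.336 (percentile 97.0), which was 0.206 (percentile 44.8) without replicate 3 and 0.227 (percentile 73.8) without replicate 1, below Klf6 at 0.277 and Klf11 at 0.244 in those fits. With no filter on low counts Klf4 was wider, at 0.522. In the filtered fit over all 3 libraries Klf7 had the narrowest spread, 0.163 (percentile 1.35). Klf6 had 0.247 (percentile 84.8) and Klf13 0.181 (percentile 25.2). The 27 immediate early genes tested, a list that holds no Klf gene, had a median of 0.239.

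Within that list of 28 immediate early genes, Egr1, a zinc finger factor, had the centred log2(TPM + 0.1) pattern over the 3 libraries most like that of Klf6, with a root mean square difference of 0.06. It had 76.6, 47.7 and 106 TPM in replicates 1, 2 and 3. Mcl1, an inhibitor of cell death, followed at 0.11 and Csrnp1, a nuclear factor, at 0.13. These 3 genes were picked by their TPM pattern, so their likeness to Klf6 in TPM follows from the pick. In CPM all 4 genes were lowest in replicate 2 and highest in replicate 1, with Egr1 at 387, 217 and 305 CPM in replicates 1, 2 and 3. Several other genes of the list had the same CPM order, and the share of all genes with it was not counted.

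The other 7 Klf genes were near or at 0, and none reached 1 TPM in every library. Klf8 was highest, at 0.27, 0.12 and 0.29 TPM. Klf15 had 3, 2 and 1 expected counts, Klf1, the erythroid factor, 1, 0 and 0, and Klf5, an epithelial factor, 0, 0 and 1. Klf14 and Klf17 were at 0 counts in every library, which allows up to 3 counts, or 0.184, 0.185 and 0.241 CPM before TMM scaling in replicates 1, 2 and 3.

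Of the 9 Sp factors, which bind the same kind of GC-rich sites, 3 reached 1 TPM in every library. Sp3 was highest at 34.3 ± 10.8 TPM, above the mean of Klf13, followed by Sp1 at 5.97 ± 1.91 TPM, Sp4 at 2.38 ± 0.609 TPM and Sp2 at 1.33 ± 0.669 TPM (SD, n = 3). Sp7, Sp8 and Sp6 had at most 1 expected count in any library and Sp5 and Sp9 none. In the second tables Sp7 had 3.48, 0.110 and 8.51 TPM, Sp8 0.691 ± 0.256 TPM and Sp9 0.440 ± 0.297 TPM (SD, n = 3), and the median log2 level of the Sp factors was 1.15, against -3.18 in the gene tables.

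All 12 listed corepressors and coactivators reached 1 TPM in each library; their median was 23.8 ± 5.04 TPM (SD, n = 3). Ncor1, a nuclear receptor corepressor, had 132 ± 33.7 TPM, the acetyltransferase Ep300 60.0 ± 9.03 TPM and the deacetylase Hdac1 39.9 ± 12.6 TPM, and Hdac2 was lowest at 5.11 ± 1.56 TPM. Of the genes for Sin3, the corepressor of Klf9, Klf10, Klf11, Klf13 and Klf16, Sin3a had 11.9 ± 2.50 TPM and Sin3b 34.6 ± 7.66 TPM. Ctbp1 and Ctbp2, the partners of Klf3, had 14.7 ± 5.15 and 20.3 ± 5.48 TPM.

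Of the 7 ubiquitin ligases described for Kruppel-like factors, 6 reached 1 TPM in every library. Wwp1 had 118 ± 33.1 TPM, Fbxw7 15.8 ± 5.67 TPM and Smurf2 11.6 ± 2.38 TPM, and Siah1b was lowest at 0.693 ± 0.261 TPM. In the ERK5 and MEF2 pathway, which activates Klf2 and Klf4 in endothelium, 9 of 10 genes reached 1 TPM, led by Mef2c at 62.7 ± 28.5 TPM, Mef2a at 52.6 ± 21.2 TPM and Hdac5 at 46.2 ± 10.4 TPM, with Mef2b lowest at 0.077 ± 0.064 TPM (SD, n = 3).

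Of the 9 genes of the TGF-beta and Smad list, the pathway that gave Klf10 and Klf11 their TIEG names, 6 reached 1 TPM in every library. Tgfb1 had 79.5 ± 1.28 TPM, Smad3 12.0 ± 2.95 TPM and Smad4 11.2 ± 2.44 TPM, and Tgfb3 was lowest at 0.160 ± 0.082 TPM. Of the 6 glucocorticoid genes, which control or accompany Klf9, 4 reached that level: Sgk1 had 60.8 ± 30.8 TPM, Per1 23.5 ± 7.27 TPM and Nr3c1, the receptor, 17.5 ± 4.68 TPM, and Fkbp5 was lowest at 0.957 ± 0.142 TPM (SD, n = 3).

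Of 9 genes described as targets of Klf2 or Klf4, 5 reached 1 TPM in every library. Mrc1, the mannose receptor, had 96.4 ± 22.5 TPM, Zc3h12a, an RNase, 32.9 ± 4.19 TPM and Eng, a TGF-beta coreceptor, 5.32 ± 0.905 TPM (SD, n = 3), while Nos3 was the lowest measured, at 0.01, 0.01 and 0 TPM, and Retnla was at 0 counts in every library. Across the lists, medians of log2(mean TPM + 0.1) were 2.45 for the members, -3.18 for the other Klf genes and 5.62 for the immediate early genes, against -0.93 for all protein-coding genes. The lists were chosen with earlier results of these data known, so these differences may be set by that choice.

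**Figure D5:**
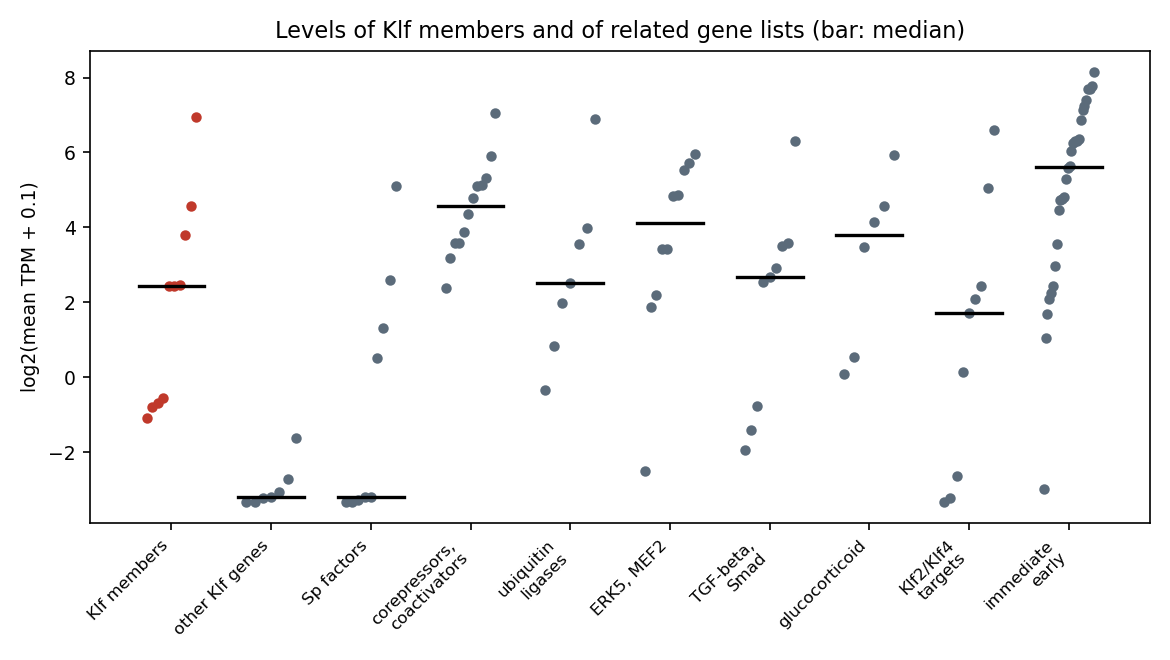
Level of each gene, as log2(mean TPM + 0.1) over the 3 libraries, for the Klf members (left) and 9 related lists, with the median as a bar. The members run from Klf9 below 0 to Klf6, which lies above the median of the immediate early genes.

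Because Klf2 and Klf4 are also expressed in endothelium, lymphocytes and fibroblasts, markers of other cells are given. T and NK cell markers summed to between 31.9 and 56.1 TPM, of which 27.6, 32.7 and 48.0 TPM were Il7r and 4.22, 6.37 and 7.93 TPM were Cd4. Cd3d, Cd3e and Cd3g were at 0 counts in every gene table. In the second tables Cd3d had 7.94, 13.1 and 18.4 TPM, Cd3g 0.600, 0.935 and 1.92 TPM and Cd3e at most 0.127 TPM, so the level of T cell markers depended on the table; their part in the Klf levels was not tested. Endothelial markers summed to between 39.9 and 53.6 TPM, mostly Vwf at 37.3, 49.0 and 50.2 TPM. Kdr, the other one at 1 TPM or more in every library, had 2.27, 1.5 and 3.04 TPM. Cdh5 and Tek had 2 or fewer expected counts. Neutrophil markers summed to between 34.8 and 51.3 TPM, led by Csf3r at 39.0 ± 8.58 TPM, with Ly6g at 0 counts.

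Erythroid markers summed to between 5.09 and 8.70 TPM, led by Alas2 at 5.81 ± 2.03 TPM. Epor followed at 0.62, 1.59 and 0.67 TPM, and Gata1 was at 0 counts. Dendritic cell markers summed to between 2.78 and 3.38 TPM, led by Batf3 at 1.86 ± 0.290 TPM, and B cell markers to between 0.48 and 1.80 TPM, led by Ighm at 0.763 ± 0.567 TPM (SD, n = 3). Fibroblast markers summed to between 0.02 and 1.16 TPM, led by Col3a1 at 0, 0.48 and 0.41 TPM, with Lum at 0 counts. Of these lists, 2 of 8 T and NK, 2 of 6 endothelial, 1 of 8 neutrophil, 1 of 6 erythroid and 1 of 6 dendritic cell markers reached 1 TPM in every library. Fewer cells of a type and less RNA per cell cannot be told apart in such bulk libraries.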

How the data were processed

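Ribosome-depleted RNA from the chromatin fraction of lipid A-treated macrophages was analysed in 3 libraries of 1 group. The members and the gene lists were chosen with earlier results of these data known. Per the file headers, each library has gene and transcript tables laid out like those of RSEM, with expected counts and TPM deposited by the authors, and a second transcript table laid out like that of kallisto, with estimated counts and TPM; 3 tables per library were used. The assembly is mm10 and the annotation M21, per the archive's text listing; the tools with their versions, the aligner and strand handling are not given in these sources. TPM is scaled over all entries, so abundant small RNAs push down the values of all other genes.

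All 55536 gene identifiers matched GENCODE M21, and 26345 other entries, among them spike-in and phiX sequences (phiX and other entries with no gene held 1.08%, 0.299% and 0.332% of counts), were kept out. Expected counts were rounded for edgeR 4.0.16 (R 4.3.3), which fitted a slope per doubling of starting RNA after filterByExpr and TMM scaling, with Benjamini-Hochberg adjusted p below 0.05. DESeq2 1.42.0 was the alternative. Differences of levels used log2(TPM + 0.1). Python 3.11.15, numpy 2.4.6, pandas 2.3.3 and matplotlib 3.10.9 were used. The fits were tested on simulated data.

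The text names all members, other Klf genes and Sp factors, the 3 highest and the lowest gene of each related list, the 3 immediate early genes most like the highest member, the highest marker of each other cell type, and transcripts at or above 20% of a member's TPM. Further genes were named after their values were seen: Sin3a, Sin3b, Ctbp1 and Ctbp2 as partners, markers at or near 0 counts, Adgre1, Csf1r and Col1a1. So were Cd4, Kdr, Epor, S1pr1, Thbd, Arg1, overlapping genes, and the transcripts Klf10-204, Klf6-203, Klf9-202 and Klf12-203. Sequences came from GENCODE M21 transcripts and RefSeq promoter windows. Alternatives were other tables, scalings, pseudocounts, limits and tools, and each library left out. No outlier test is made with 3 libraries.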

Additional observations from a re-analysis of the deposited data

How the results depend on the processing

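The summed TPM of the 10 members, 179 in the gene tables, was 562 in the second transcript tables, 919 when TPM was rescaled over coding genes and 106 over protein-coding transcripts only; leaving out 1 library gave 149 to 207. Posterior mean TPM gave a sum of 172 but put Klf11 at 1.08 TPM, against 0.477, above Klf4 at 0.790 TPM and Klf16 at 0.553 TPM. Of the 9 neighbouring steps in the order by TPM, 6 kept their direction in the second tables, 8 over protein-coding transcripts, 5 with expected counts not divided by length, and 7 to 9 with 1 library left out (7 without replicate 3 and 8 without replicate 1). The number of members at the limit in every library, 6 at 1 TPM, was 10 at 0.1 TPM and 2 at 10 TPM. It was 7 at 1 TPM in the second tables, where Klf11 had 2.22, 3.59 and 6.48 TPM. The shares of all coding genes under these alternatives were not counted. The median log2 level of the members, 2.45, was 3.42 in the second tables and 2.22 to 2.50 with 1 library left out. That of all protein-coding genes, -0.925, was 0.873 in the second tables. The median noncoding share over the 4 members with such a transcript, 52.5%, was 44.3% in the second tables, 23.6% by expected counts and 51.5% to 54.1% with 1 library left out. The number of genes with a slope, 88, was 284 with no filter and 158 with the second-table counts, with 0 members called under every alternative with a test. With 2 libraries a slope has no residual degree of freedom and is a value only: it ran from -0.148 (without replicate 1) to 0.466 for Klf10, and turned negative without replicate 2 for Klf4 (-1.93 to 2.30), Klf7 (-0.0332 to 0.0627) and Klf16 (-1.03 to 1.52). The cause of these shifts was not tested. The median spread stayed between 0.181 and 0.227 under its alternatives. Of 140 recomputed values of single members, 107 stayed within their error or side of the threshold, 29 moved and 4 turned. This tally does not measure robustness, since part of it was fixed in advance. Leaving out 1 of 3 libraries cannot move a mean TPM by as much as its SD, and 0 of 10 moved each time. Rescaling over coding genes raises every TPM, and 10 of 10 moved. The amounts are evenly spaced in log2, so leaving out replicate 3, the middle amount, changes a slope little. No paired analysis was possible because there is 1 group. A count of 0 to 50, as for Klf4, Klf16, Klf11 and Klf9, limits what can be said of those members.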

Other observations

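Klf10 was the member whose coding transcripts were divided most unevenly between libraries in the gene quantification. Klf10-201 carried 36.5%, 26.8% and 3.78% of the Klf10 TPM in replicates 1, 2 and 3, and Klf10-202 carried 38.4%, 43.7% and 85.1%. In the second tables Klf10-201 had 0.841, 1.02 and 0.603 TPM and Klf10-202 had 3.93, 2.17 and 4.34 TPM, so there Klf10-202 was the higher in all 3 libraries. These are estimates over transcripts that share most of their sequence.

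S1pr1, a lymphocyte egress receptor, and Thbd, a regulator of coagulation, both on the list of described targets of Klf2 or Klf4, had 14.3, 8.52 and 20.4 CPM and 6.97, 13.7 and 19.7 CPM in replicates 1, 2 and 3. Klf4 had 0.849, 0.650 and 3.33 CPM there. All 3 genes were highest in replicate 3. Better-measured genes of that list were not: Mrc1 had 619, 751 and 554 CPM, Eng 13.3, 20.5 and 14.4 CPM and Zc3h12a 94.7, 64.3 and 65.9 CPM. Arg1 was also highest in replicate 3, but from 13, 5 and 14 expected counts. S1pr1 and Thbd were picked after their values were seen.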
